A study of Mus musculus with 14 samples.

Results

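The genes described are 7 chromatin regulators that act when histones are taken off the DNA of spermatids: Brdt, Chd5, Rnf8, Cdyl, Epc1, Phf7 and Kat5. They were chosen by name, as the rows with these symbols in the deposited expression tables, and were 7 of the 20626 genes there. All 7 were found in every table under a single interval, and no other gene of the tables overlapped any of them. The study compared wild type (WT) mice with mice labelled Setd2KO, for knockout of Setd2. Setd2 encodes the methyltransferase that places trimethylation on lysine 36 of histone H3 (H3K36me3) along transcribed genes. Both genotypes were on the C57BL/6J strain, and pachytene and diplotene spermatocytes (PD) and round spermatids (RS) were sorted from adult testes by fluorescence of the dyes Ho33342 and PI. RNA-seq gave 2 libraries for each of the 4 groups, PD WT, PD Setd2KO, RS WT and RS Setd2KO, and H3K36me3 ChIP-seq gave 1 peak list per group. The labels give neither the Cre line or promoter nor the deleted part of Setd2, and do not say whether the libraries came from separate mice, so the p-values measure the spread between libraries, which may be technical.

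As sperm form, round spermatids elongate and exchange nearly all their histones, first for transition proteins and then for protamines. The exchange is known to be prepared by a wave of H4 acetylation, by ubiquitylation of histones, and by reader and remodelling proteins that open the chromatin. Kat5 (Tip60) is the catalytic subunit and Epc1 a scaffold subunit of the NuA4/TIP60 acetyltransferase complex. Brdt is the testis-specific BET protein that binds hyperacetylated H4. Rnf8 and Phf7 are ubiquitin ligases that act on histones, Cdyl is a chromodomain corepressor that also lowers histone crotonylation, and Chd5 is an ATP-dependent chromodomain remodeller.

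Chd5 and Cdyl were the members that were nearly silent in spermatocytes and abundant in round spermatids, and the members with no H3K36me3 peak in either WT list. They were also the members that fell in Setd2KO round spermatids, each by 0.64 on a log2 scale, whereas in Setd2KO spermatocytes both rose from a very low level. The fall was not particular to them. Autosomal genes low in WT spermatocytes and high in WT round spermatids had medians of −0.58 with a peak and −0.52 without in Setd2KO round spermatids. The other 5 members were already expressed in spermatocytes, lay almost wholly under H3K36me3 peaks in both WT cell types, and none of them fell in Setd2KO round spermatids.

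The start regions of Chd5 and Cdyl are shown because these are the genes that moved together. The sequences are RefSeq's for build GRCm38.p6, each running 5′ to 3′ on the plus strand from 250 bases before a transcription start to 50 bases after it, and the capitals mark a match to the X-box motif, which was searched as GTTGCC, any 3 bases and then GCAAC. The Chd5 window lies at chr4:152338401-152338700, the first Cdyl window at chr13:35741212-35741511 and the second Cdyl window at chr13:35659612-35659911.
Chd5 start 1: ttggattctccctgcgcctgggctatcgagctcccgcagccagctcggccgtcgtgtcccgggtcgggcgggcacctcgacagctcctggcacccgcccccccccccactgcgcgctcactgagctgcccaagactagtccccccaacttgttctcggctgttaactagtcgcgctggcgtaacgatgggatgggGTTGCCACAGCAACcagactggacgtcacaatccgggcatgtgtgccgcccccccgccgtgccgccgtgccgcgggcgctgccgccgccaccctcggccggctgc
Cdyl start 1: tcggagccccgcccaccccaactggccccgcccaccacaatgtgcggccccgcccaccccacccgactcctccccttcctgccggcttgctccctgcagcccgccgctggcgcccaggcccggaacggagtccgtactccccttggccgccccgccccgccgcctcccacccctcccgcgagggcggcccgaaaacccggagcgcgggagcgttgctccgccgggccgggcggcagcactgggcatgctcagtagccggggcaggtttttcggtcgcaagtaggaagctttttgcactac
Cdyl start 2: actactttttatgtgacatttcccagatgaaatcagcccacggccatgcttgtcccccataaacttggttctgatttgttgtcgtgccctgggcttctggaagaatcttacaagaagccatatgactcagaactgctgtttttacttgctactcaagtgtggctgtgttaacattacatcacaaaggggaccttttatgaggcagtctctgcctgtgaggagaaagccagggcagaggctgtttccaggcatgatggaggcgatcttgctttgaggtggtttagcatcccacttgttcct
The X-box began 55 bases before the first Chd5 start and 58 bases before the second, and 49 of 32544 mouse promoters (0.151%) held such a match on either strand. None of the 3 Cdyl windows held it. The cAMP response element TGACGTCA, in 1.80% of promoters, was in no member's window, and the E-box CACGTG, in 7.17%, was in those of Brdt, Phf7 and the first start of Kat5. The first Cdyl window held 73.7% G and C, the second 47.0%, and the Chd5 window 70.7%. These motifs were chosen after the sequences were seen, 6 of the 7 members (all but Epc1) matched the promoter table, and a match describes letters only.

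RNA levels are in FPKM, which divides a gene's fragments by transcript length and by library depth, so they can be set side by side between genes. Library depth, read from the steps of low values, was 50.8 to 84.9 megareads, and the replicates of each group correlated at r of 0.992 to 0.995 across genes. As a check of the labels, Setd2 stood at 21.2 and 19.1 FPKM in WT and 21.0 and 21.4 in Setd2KO spermatocytes, and at 5.24 and 5.58 in WT and 12.1 and 8.67 in Setd2KO spermatids. The level was not lower in the libraries labelled Setd2KO, and in RS it passed as higher (0.81 on the log2(FPKM + 1) scale, limma adjusted p = 0.00162), but a whole-gene value does not check the loss of part of a gene. The peak lists did follow the labels: 88.2% of expressed autosomal genes carried an H3K36me3 peak in PD WT and 1.85% in PD Setd2KO, 75.4% in RS WT and 5.56% in RS Setd2KO.

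The members ranged from genes near 1 FPKM to 1 of the most abundant transcripts of these cells.

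**Figure D1:**
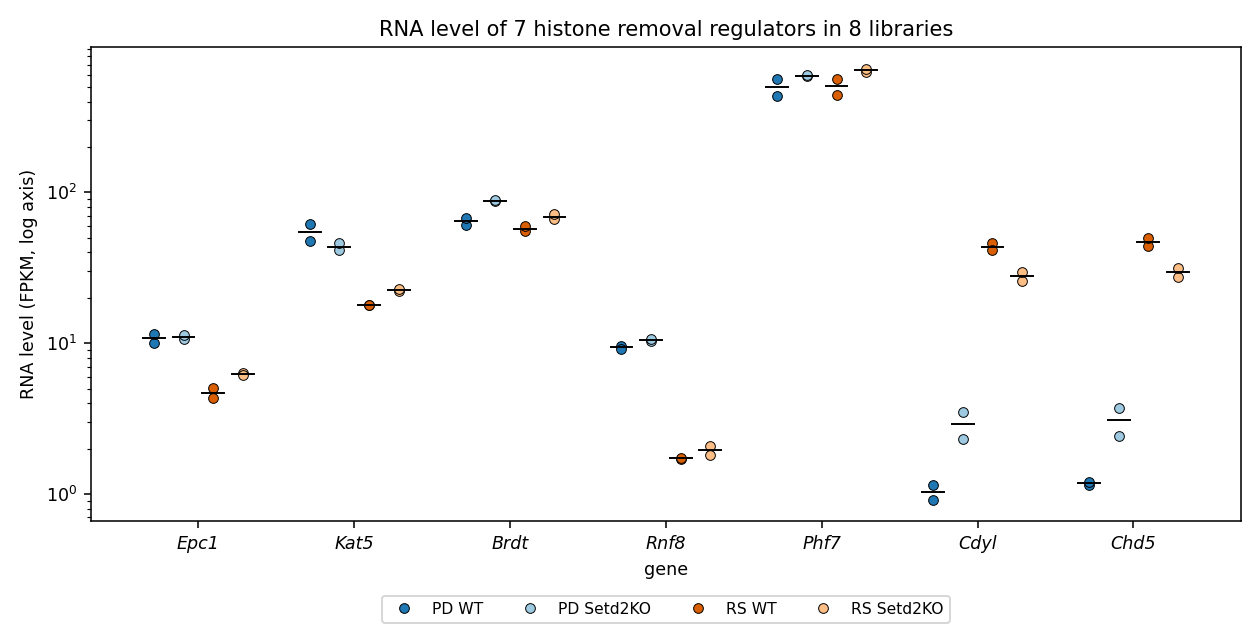
FPKM of each member in each of the 8 RNA-seq libraries, on a log axis, with the 2 libraries of each group as points. Phf7 lies between 436 and 659 FPKM, Chd5 and Cdyl climb from 0.915 to 1.20 FPKM in PD WT to 41.6 to 49.7 in RS WT, and Rnf8 lies between 1.71 and 2.09 FPKM in RS.

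In PD, Kat5 measured 47.5 and 61.8 FPKM in WT and 41.2 and 46.1 in Setd2KO, and in RS 17.8 and 17.9 in WT and 22.2 and 23.0 in Setd2KO. Its spermatocyte libraries all lay above its spermatid libraries, and the RS Setd2KO pair lay above the RS WT pair. In PD, Epc1 measured 10.0 and 11.5 FPKM in WT and 10.7 and 11.4 in Setd2KO, and in RS 4.32 and 5.09 in WT and 6.33 and 6.14 in Setd2KO. The PD genotypes of Epc1 overlapped and the RS genotypes did not. The acetyltransferase pair was higher in PD than in RS in both genotypes.

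In PD, Brdt measured 61.1 and 68.0 FPKM in WT and 88.4 and 88.4 in Setd2KO, and in RS 55.5 and 59.5 in WT and 66.4 and 71.6 in Setd2KO. Both Setd2KO libraries lay above both WT libraries in each cell type, and the PD WT libraries lay above those of RS WT. Among genes of at least 1 FPKM, Brdt stood at the 93.0th percentile in PD WT and the 89.5th in RS WT.

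The ubiquitin ligases differed most in level. In PD, Rnf8 measured 9.63 and 9.20 FPKM in WT and 10.4 and 10.6 in Setd2KO, and in RS 1.71 and 1.73 in WT and 2.09 and 1.81 in Setd2KO. Rnf8 was low in every spermatid library, where its values stood for 88.1 to 145 reads per kilobase of transcript. In PD, Phf7 measured 436 and 566 FPKM in WT and 591 and 601 in Setd2KO, and in RS 445 and 565 in WT and 630.0 and 659 in Setd2KO. It stood at the 99.8th percentile of expressed genes in PD WT and in RS WT, and its WT libraries of the 2 cell types overlapped.

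In PD, Cdyl measured 0.915 and 1.15 FPKM in WT and 3.51 and 2.31 in Setd2KO, and in RS 46.0 and 41.6 in WT and 25.8 and 29.6 in Setd2KO. In PD, Chd5 measured 1.15 and 1.20 FPKM in WT and 3.72 and 2.44 in Setd2KO, and in RS 44.1 and 49.7 in WT and 27.7 and 31.8 in Setd2KO. In both genes the genotypes did not overlap in either cell type: Setd2KO was above WT in PD and below it in RS.

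By group mean in RS WT, the order from high to low was Phf7 (505 ± 84.4 FPKM, SD, n = 2), Brdt (57.5 ± 2.81), Chd5 (46.9 ± 3.99), Cdyl (43.8 ± 3.12), Kat5 (17.9 ± 0.0427), Epc1 (4.705 ± 0.539) and Rnf8 (1.72 ± 0.0148). Chd5 and Cdyl were the neighbours in this order whose libraries overlapped. In PD WT the order was Phf7 (501 ± 92.3 FPKM), Brdt (64.6 ± 4.90), Kat5 (54.6 ± 10.1), Epc1 (10.8 ± 1.06), Rnf8 (9.42 ± 0.306), Chd5 (1.18 ± 0.0386) and Cdyl (1.03 ± 0.168). There, Brdt and Kat5 overlapped, since the higher Kat5 library was above the lower Brdt library, and so did Chd5 and Cdyl. With 2 libraries a group, these orders have no test of their own.

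The first comparison asks which members change as WT spermatocytes become round spermatids. Chd5 and Cdyl rose, each by 4.46 on the log2(FPKM + 1) scale, and Rnf8, Kat5 and Epc1 fell. Brdt and Phf7 did not pass the test. Genes were tested with limma over all 11452 genes of at least 1 FPKM in a group, with p-values adjusted over all of them by the Benjamini-Hochberg method and a threshold of 0.05. Of all genes, 82.7% passed it here and 46.7% passed as lower, so 5 of 7 members called reads as no more than that background. All genes had a median change of −0.21, and the members one of −0.16. The pseudocount of 1 FPKM makes every change smaller than the ratio of FPKM, most of all for low genes such as Chd5 and Cdyl in PD and Rnf8 in RS.

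Chd5 rose with SE 0.159 and Cdyl with SE 0.160 (limma adjusted p = 2.10e-09 for each), equal steps on that scale. Rnf8 fell by 1.94 (SE 0.110, adjusted p = 1.70e-08). Kat5 fell by 1.55 (SE 0.152, adjusted p = 1.72e-06) and Epc1 by 1.05 (SE 0.126, adjusted p = 9.89e-06). These 5 calls held without any 1 library. Brdt had a change of −0.16 (95% interval −0.47 to 0.14, adjusted p = 0.290), and Phf7 one of 0.013 (−0.41 to 0.43, adjusted p = 0.950). Brdt passed as lower with upper-quartile scaling (−0.26, adjusted p = 0.0216), with quantile normalization (−0.49, adjusted p = 6.49e-04) and without PD WT replicate 1 (−0.24, adjusted p = 0.0456).

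In Setd2KO the same step had the same directions for these 5 genes.

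**Figure D2:**
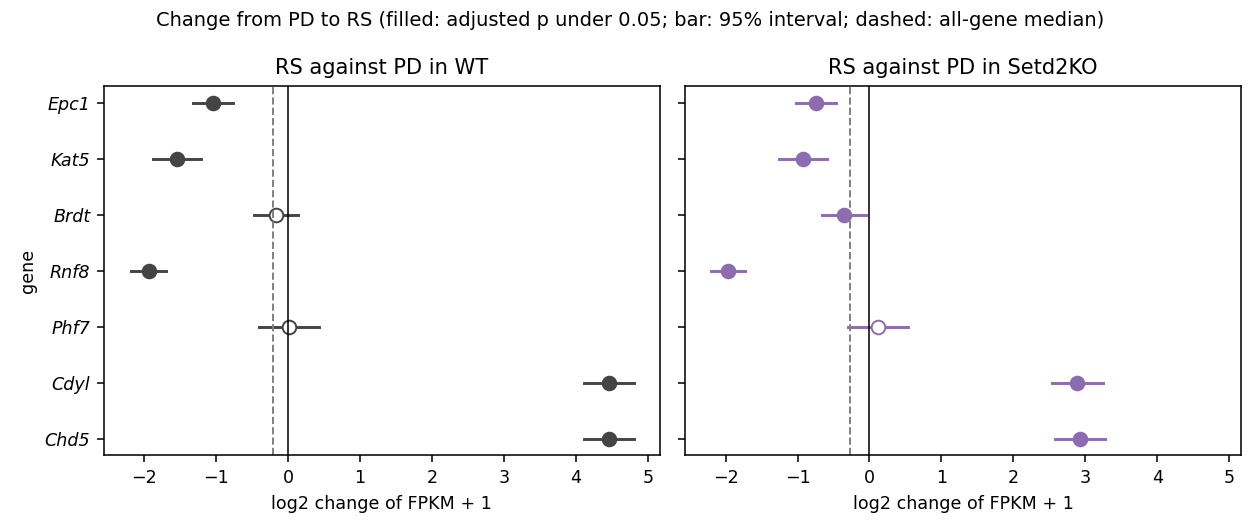
Change from PD to RS on the log2(FPKM + 1) scale for each member, in WT (left) and Setd2KO (right), with bars for the 95% interval, filled points for adjusted p under 0.05 and a dashed line for the median of all genes. Chd5 and Cdyl stand far to the right in both, at 4.46 each in WT and at 2.93 and 2.89 in Setd2KO, while Rnf8 lies at −1.94 and −1.97.

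Chd5 rose by 2.93 (SE 0.159, limma adjusted p = 2.78e-08) and Cdyl by 2.89 (SE 0.160, adjusted p = 3.14e-08). Rnf8 fell by 1.97 (adjusted p = 3.23e-08), Kat5 by 0.92 (adjusted p = 1.46e-04) and Epc1 by 0.74 (adjusted p = 1.86e-04). Across all genes 82.7% passed here too (34.2% higher, 48.5% lower), with a median of −0.27 against −0.35 for the members. Brdt also passed as lower, at −0.35 (SE 0.139, adjusted p = 0.0344), close to the all-gene median. That call was lost without PD Setd2KO replicate 1 (adjusted p = 0.149), PD Setd2KO replicate 2 (0.154), RS Setd2KO replicate 1 (0.185) or RS Setd2KO replicate 2 (0.0794). Phf7, at 0.11 (−0.31 to 0.53), did not pass (adjusted p = 0.590).

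In the WT lists, H3K36me3 peaks lay over most or all of the gene bodies of 5 members, and no peak touched the other 2. Only called peaks were read, so a gene without a peak may still carry some of the mark. Brdt was covered along 100% of its length in both WT lists, by a single peak of 28790 bases in PD, at chr5:107760077-107788866 in build mm9, and one of 29926 bases in RS, at chr5:107760096-107790021. Phf7 (chr14:32050882-32064404, minus strand) was covered along 99.1% in PD WT and 100% in RS WT, and Epc1 (chr18:6435949-6490855, minus strand) along 98.4% and 99.8%. Kat5 (chr19:5603014-5610094, minus strand) was covered along 95.8% and 100%, and Rnf8 (chr17:29751734-29778609, plus strand) along 98.1% and 90.5%. Some peaks ran far outside the gene. Relative to the start of Phf7, a gene of 13523 bases, a PD WT peak ran from −25967 to 5677 and the RS WT peak from −25944 to 14875. The Brdt peaks ended 28654 bases (PD WT) and 29809 bases (RS WT) from the start of a gene of 19548 bases. Such cover need not be the gene's own mark. Of 10 equal parts of the gene, cover of the first part differed most between the WT lists in Rnf8 and Kat5. For Rnf8 it was 80.7% in PD WT and 4.90% in RS WT, with the peak edge 520 and 2556 bases after the start. For Kat5 it was 58.5% in PD WT and 100% in RS WT. In that gene of 7081 bases, the edge lay at 294 in PD WT and −83 in RS WT relative to the start. The edge at Epc1 lay at 420 and −148. These are edges of called peaks in lists without replicates, so a difference between the cell types was not tested.

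No peak touched Chd5 (chr4:151712760-151764303, plus strand) or Cdyl (chr13:35751731-35965933, plus strand) in either WT list, though both genes had at least 41.6 FPKM in RS WT. The nearest peak to Chd5 was 4137 bases away in PD WT and 3899 bases away in RS WT, and the nearest to Cdyl was 26713 and 21379 bases away.

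**Figure D3:**
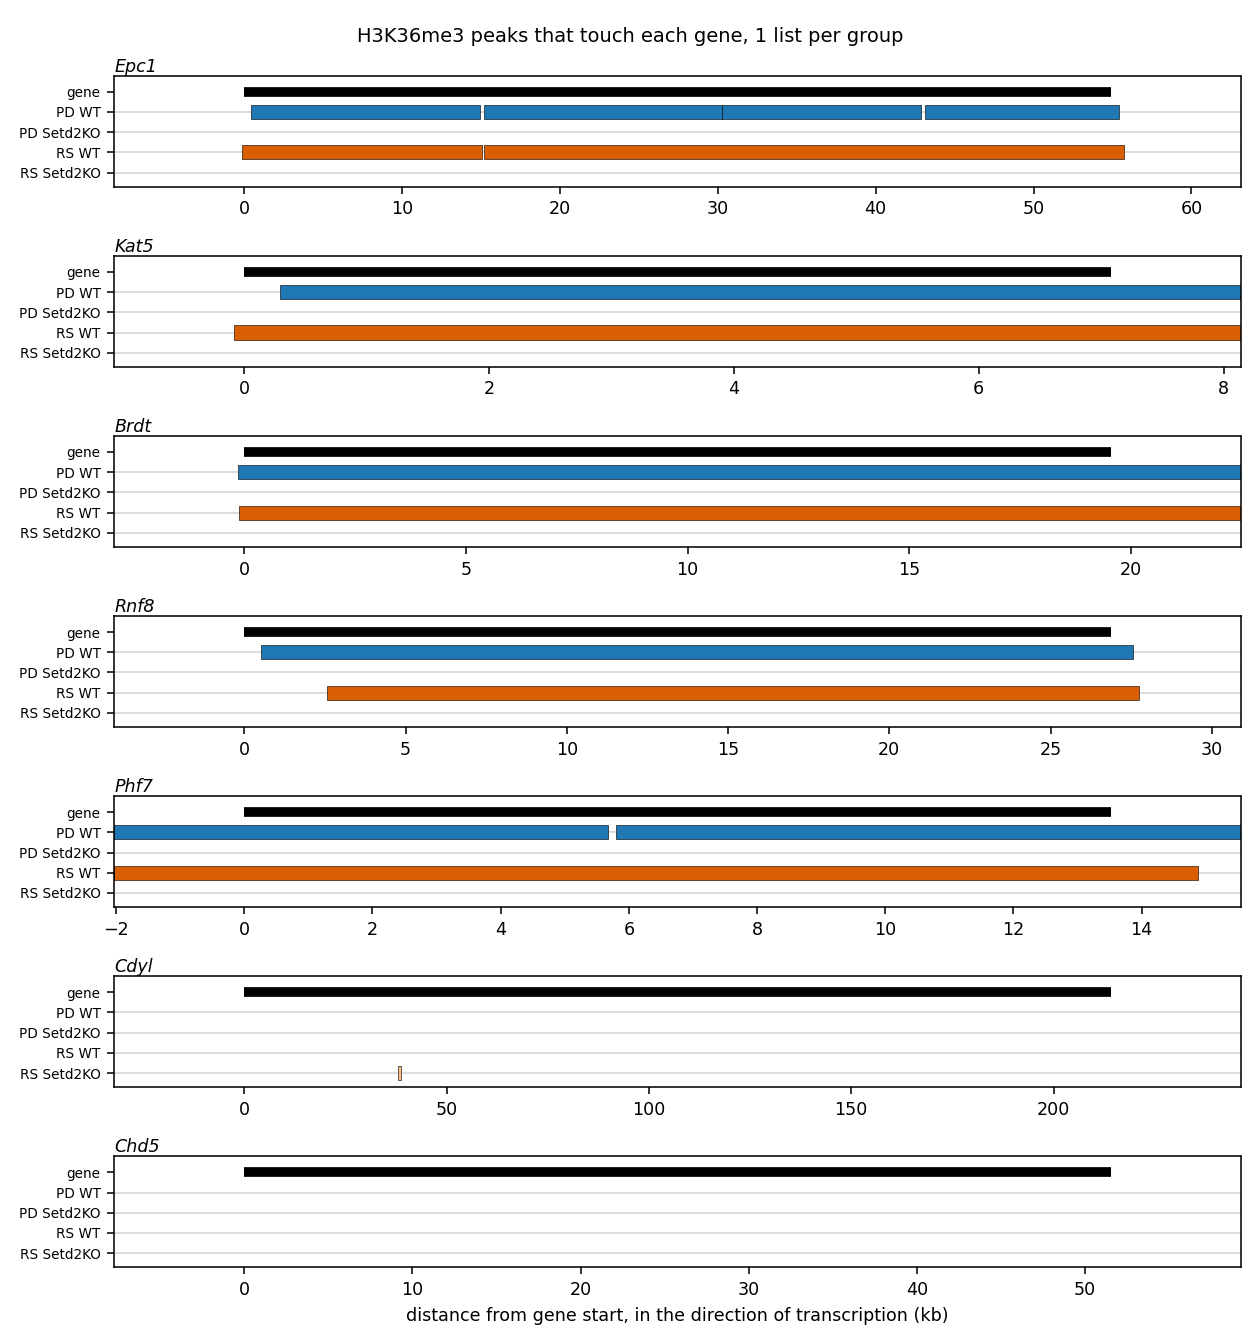
H3K36me3 peaks that touch each member gene in the 4 peak lists (peaks beside a gene are not drawn), with position as distance from the gene's start in kb, peaks clipped at the panel edge and very short peaks drawn at a minimum width. Long peaks fill Brdt, Rnf8, Epc1, Phf7 and Kat5 in PD WT and RS WT, the Chd5 panel has none over the gene, and a single short peak of 169 bases marks Cdyl in RS Setd2KO.

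So 5 of the 7 members carried a peak in PD WT, where 88.2% of autosomal genes of at least 1 FPKM did, and 5 of 7 in RS WT, where 75.4% did. The median cover of all those genes was 81.5% in PD WT and 71.1% in RS WT, and that of the members 98.1% and 99.8%. There is 1 list per group, so these differences have no replicate check.

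In the Setd2KO lists the long peaks over these genes were gone. No member carried a peak in PD Setd2KO, and the one found in RS Setd2KO lay inside Cdyl, at chr13:35789676-35789844, 37945 bases from the gene's start, with an authors' score of 52.47 against a lowest score of 50 in the lists. It covered 0.0789% of the gene. Brdt, whose WT peaks scored 693.38 in PD and 375.62 in RS, and Kat5, whose peaks scored 1021.01 and 889.46, had none in either Setd2KO list.

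Chd5 and Cdyl shared the lack of a peak with many other genes that are switched on after meiosis. Of 468 autosomal genes whose level reached 20 FPKM in RS WT and was lower by 20 times or more in PD WT, 364 (77.8%) had no peak in RS WT, and Chd5 and Cdyl are in this group by their levels. Among all 2503 autosomal genes that reached 20 FPKM there, 560 (22.4%) had none. In PD WT, 92 of 2358 such genes (3.90%) had none.

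The main comparison asks what the loss of Setd2 does to the members in each cell type. In round spermatids Chd5 and Cdyl fell and Epc1 rose, while Brdt, Rnf8, Phf7 and Kat5 did not pass the test. So 3 of 7 members were called, where 42.7% of all genes were (20.9% higher, 21.8% lower), and a count of 3 reads as near that background.

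**Figure D4:**
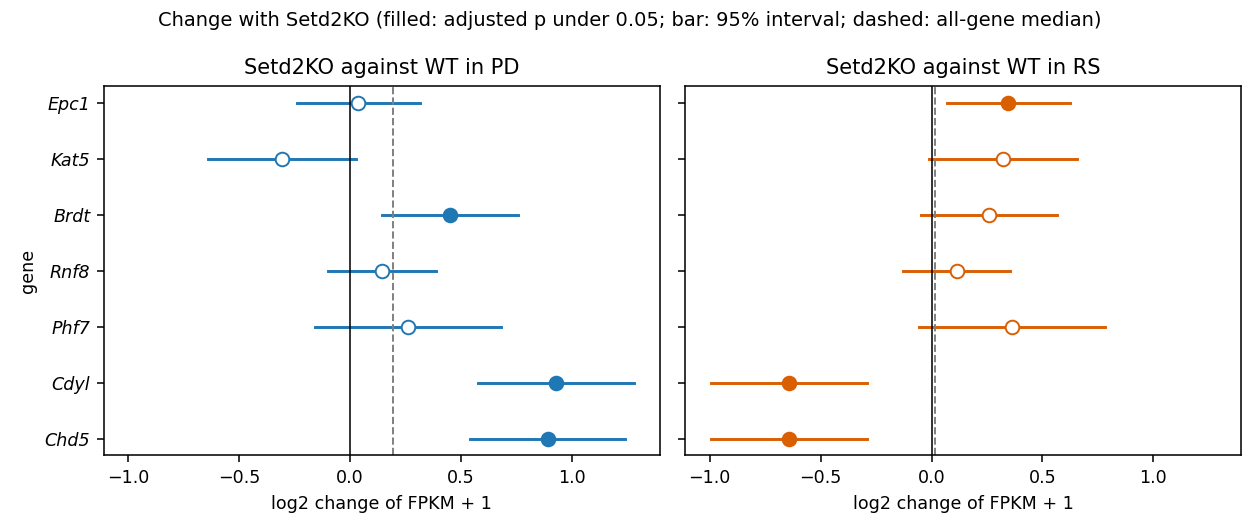
Change with Setd2KO on the log2(FPKM + 1) scale for each member in PD (left) and RS (right), with bars for the 95% interval, filled points for adjusted p under 0.05 and a dashed line for the median of all genes. Chd5 and Cdyl lie at 0.89 and 0.93 in PD and at −0.64 in RS, and the other members lie between −0.31 and 0.45 in PD and between 0.11 and 0.36 in RS.

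Chd5 fell by 0.64 (SE 0.159, limma adjusted p = 0.00777), from 46.9 ± 3.99 to 29.7 ± 2.90 FPKM (SD, n = 2). Cdyl fell by 0.64 (SE 0.160, adjusted p = 0.00806), from 43.8 ± 3.12 to 27.7 ± 2.67 FPKM. The fall of Chd5 no longer passed without RS WT replicate 2 (adjusted p = 0.0645) or RS Setd2KO replicate 1 (0.0661), and that of Cdyl without RS WT replicate 1 (0.0706) or RS Setd2KO replicate 1 (0.0670). Each kept its direction in those fits, and all genes had a median change of 0.015. The 468 autosomal genes of their class, described above, also fell. Of the 104 with a peak in RS WT, 49 were called lower and 1 higher, with a median of −0.58. Of the 364 without a peak, 173 were called lower and 3 higher, with a median of −0.52. The class was chosen in part by a high RS WT level, which can itself lower these medians.

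Epc1 rose by 0.35 in RS Setd2KO (SE 0.126, limma adjusted p = 0.0456), from 4.705 ± 0.539 to 6.23 ± 0.134 FPKM. This call was lost without RS WT replicate 1 (adjusted p = 0.284), RS WT replicate 2 (0.0608), RS Setd2KO replicate 1 (0.174), RS Setd2KO replicate 2 (0.112), PD Setd2KO replicate 1 (0.0697) or PD Setd2KO replicate 2 (0.0691). Brdt stood at 0.26 (95% interval −0.05 to 0.57, adjusted p = 0.155), Phf7 at 0.36 (−0.06 to 0.78, adjusted p = 0.147), Kat5 at 0.32 (−0.01 to 0.66, adjusted p = 0.110) and Rnf8 at 0.11 (−0.13 to 0.36, adjusted p = 0.423). Brdt, Phf7 and Kat5 passed as higher with upper-quartile scaling (adjusted p = 0.0199, 0.0287 and 0.0142), Brdt and Kat5 also with quantile normalization (0.0209 and 0.0128), and all 3 passed when PD WT replicate 1 or PD WT replicate 2 was left out. The members' median in RS was 0.26.

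The summed level of 10 round spermatid markers was 4803 and 4638 FPKM in WT and 1643 and 1741 in Setd2KO spermatids. Most of it lay in 4 genes, Tnp1, Tnp2, Prm1 and Prm2, which summed to 3922 and 3806 FPKM in WT and 1085 and 1006 in Setd2KO spermatids. The other 6, Acrv1, Spaca1, Izumo1, Tssk1, Tssk2 and Catsper3, summed to 881 and 832 FPKM in WT and 558 and 736 in Setd2KO spermatids, and among them Spaca1 (194 and 180 against 158 and 200 FPKM) and Catsper3 (35.5 and 49.4 against 24.7 and 36.5 FPKM) overlapped between the genotypes. This split was made after the values were seen. The sum of 6 spermatocyte markers was 131.5 and 130.0 FPKM in WT and 218.5 and 191 in Setd2KO spermatids. Ccna1, Sycp3 and Hormad1 were higher there, and Spo11 was lower (18.0 and 16.1 against 11.7 and 12.5 FPKM). Sycp1 (18.6 and 17.7 against 14.7 and 18.9 FPKM) and Pou5f2 (2.19 and 2.64 against 3.04 and 2.30 FPKM) overlapped. Ccna1 was the largest part (64.1 and 67.7 against 116 and 101 FPKM), and was lower in PD WT (41.3 and 62.1 FPKM) than in RS WT. The sum of 4 peritubular myoid markers was 2.15 and 3.22 FPKM in WT and 10.2 and 9.27 in Setd2KO spermatids. That of 5 Sertoli cell markers was 2.92 and 4.03 against 8.17 and 7.03. Most of the Sertoli sum was Clu (2.71 and 3.70 against 7.55 and 6.38 FPKM), and Amh overlapped. For 6 spermatogonial markers the sum was 3.20 to 4.39 against 5.07 to 5.53. Gfra1 was its largest part, while Sohlh1 was lower (0.622 and 0.749 against 0.121 and 0.129 FPKM). For 5 Leydig cell markers the sum was 4.77 to 9.26 against 9.84 to 14.1, and for 4 macrophage markers 2.05 to 3.82 against 2.55 to 3.09. No marker was at 0 in every library. In sorted bulk cells, fewer cells of a type and less RNA per cell cannot be told apart, and the part of this shift in the fall of Chd5 and Cdyl was not tested.

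In spermatocytes the direction for Chd5 and Cdyl was the opposite. Chd5, Cdyl and Brdt rose in PD Setd2KO and none of the 7 members fell, with 36.1% of all genes called (29.8% higher, 6.30% lower) and a median change of 0.19 for all genes and 0.26 for the members. Cdyl rose by 0.93 (SE 0.160, limma adjusted p = 0.00168), from 1.03 ± 0.168 to 2.91 ± 0.854 FPKM (SD, n = 2), and by 0.74 relative to the median of all genes. Chd5 rose by 0.89 (SE 0.159, adjusted p = 0.00198), from 1.18 ± 0.0386 to 3.08 ± 0.902 FPKM, and by 0.70 relative to that median. Brdt rose by 0.45 (SE 0.139, adjusted p = 0.0280), from 64.6 ± 4.90 to 88.4 ± 0.0281 FPKM, and by 0.26 relative to it. The Brdt call was lost without PD Setd2KO replicate 1 (adjusted p = 0.154), PD Setd2KO replicate 2 (0.159), RS Setd2KO replicate 1 (0.0510) or RS Setd2KO replicate 2 (0.0501), while those of Chd5 and Cdyl held without any 1 library.

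The other 4 members did not pass in PD. Kat5 stood at −0.31 (95% interval −0.64 to 0.03, adjusted p = 0.136), which is −0.50 relative to the median of all genes, and it passed as lower with upper-quartile scaling (−0.44, adjusted p = 0.0103), with quantile normalization (−0.40, adjusted p = 0.0119) and without PD WT replicate 1 (−0.49, adjusted p = 0.0190). Rnf8 stood at 0.14 (−0.10 to 0.39, adjusted p = 0.325), Epc1 at 0.036 (−0.24 to 0.31, adjusted p = 0.841) and Phf7 at 0.26 (−0.16 to 0.68, adjusted p = 0.301). Phf7 passed as higher without PD WT replicate 2 (0.45, adjusted p = 0.0295).

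The levels of Chd5 and Cdyl in PD followed those of spermatid-specific genes library by library.

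**Figure D5:**
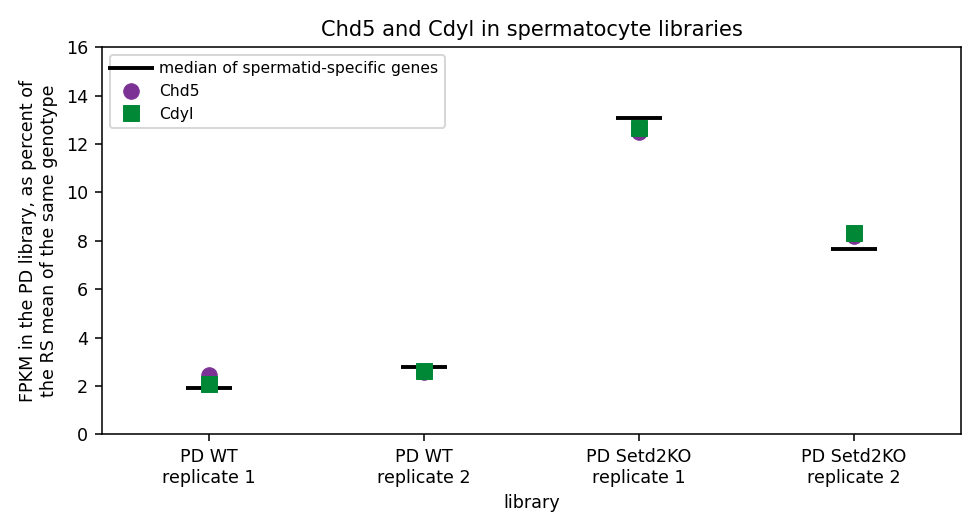
FPKM of Chd5 and Cdyl in each PD library as percent of their mean in RS of the same genotype, beside the median of 517 spermatid-specific genes (lines). All 3 stand between 1.92% and 2.77% in the WT libraries, between 12.5% and 13.1% in PD Setd2KO replicate 1 and between 7.67% and 8.32% in replicate 2.

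The median of 517 spermatid-specific genes, chosen by the same thresholds, was 1.92% and 2.77% of the RS level in PD WT and 13.1% and 7.67% in PD Setd2KO. Chd5 stood at 2.45% and 2.56% in PD WT and at 12.5% and 8.22% in PD Setd2KO, and Cdyl at 2.09%, 2.63%, 12.7% and 8.32%. The low WT values are set by how the class was chosen. Setd2KO levels were not used to choose it, but choosing by extreme WT levels can still raise the Setd2KO shares. Those shares also divide by RS Setd2KO levels, where Chd5, Cdyl and the class fell, so they are raised in part by that fall. Because both genes stood at the class median, subtracting that share of the RS level from each PD library brings them near 0 by construction (Chd5 change −0.050, Cdyl 0.069), so these values restate the shares and test nothing further. Brdt, which is not in the class, stood at 0.36 after the subtraction and was not called (limma adjusted p = 0.0931). Of the 10 round spermatid markers, 6 were called higher in PD Setd2KO. Acrv1, Spaca1, Izumo1, Tssk1, Tssk2 and Catsper3 summed to 17.4 and 24.5 FPKM in WT and 90.7 and 50.05 in Setd2KO spermatocytes, while the sum of Tnp1, Tnp2, Prm1 and Prm2 was 177 and 155 FPKM in WT and 119 and 81.8 in Setd2KO spermatocytes. The sum of 6 spermatocyte markers was 350.3 and 442 FPKM in WT and 452 and 486 in Setd2KO spermatocytes. These markers were split: Sycp1, Sycp3 and Hormad1 were higher in both Setd2KO libraries than in both WT libraries, and Spo11, Ccna1 and Pou5f2 were lower. The sum of 6 spermatogonial markers was 2.02 to 2.38 against 6.08 to 7.86.

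The last comparison asks whether the effect of Setd2KO differed between the cell types, by the difference of the 2 effects in 1 fit. It did for Chd5 (RS minus PD −1.53, SE 0.225, limma adjusted p = 7.60e-04), Cdyl (−1.57, SE 0.226, adjusted p = 7.04e-04) and Kat5 (0.63, SE 0.214, adjusted p = 0.0416). Across all genes, 35.1% were called (7.76% higher, 27.3% lower), with a median of −0.16. With the spermatid share subtracted, which sets the PD levels of both genes near 0, Chd5 stood at −0.59 (adjusted p = 0.0516) and was no longer called, and Cdyl stood at −0.71 (adjusted p = 0.0156). The Kat5 call was lost without PD Setd2KO replicate 1 (adjusted p = 0.159), PD Setd2KO replicate 2 (0.0711), RS WT replicate 1 (0.107), RS WT replicate 2 (0.101), RS Setd2KO replicate 1 (0.0999) or RS Setd2KO replicate 2 (0.105). It was also lost with no filter on low values (0.0565). The other 4 members did not pass: Brdt stood at −0.19 (95% interval −0.62 to 0.25, adjusted p = 0.496), Rnf8 at −0.030 (−0.37 to 0.31, 0.905), Epc1 at 0.31 (−0.08 to 0.70, 0.203) and Phf7 at 0.10 (−0.49 to 0.69, 0.806). Epc1 passed with upper-quartile scaling (0.47, adjusted p = 0.0297) and with quantile normalization (0.52, adjusted p = 0.0207).

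Beside the members, 72 genes in 7 lists of their partners and paralogues were followed, of which 70 were tested. In WT, 17 of the 70 rose and 41 fell from PD to RS, with a median of −0.64 against −0.21 for all genes, and 82.7% of all genes called, close to the share in the lists. Of the 16 NuA4/TIP60 partners of Kat5 and Epc1, 3 rose and 9 fell. Trrap, the largest subunit, fell by 2.38 (from 8.92 to 0.848 FPKM) and Mrgbp by 2.45 (from 45.6 to 7.44 FPKM), while Epc2, the paralogue of Epc1, rose by 1.81 (from 4.32 to 17.5 FPKM). So Epc1 and Epc2 went in opposite directions between the cell types. Morf4l2 rose by 2.21 (from 0.547 to 6.16 FPKM).

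Among other acetyltransferase genes 5 of 12 rose and 5 fell. Nutm1, whose protein acts with p300 and CBP in the acetylation wave of spermatids, rose by 4.15 (from 0.677 to 28.8 FPKM), nearly the step of Chd5 and Cdyl, and Kat2b rose by 3.42. Psme4, the PA200 proteasome activator that degrades acetylated histones, rose by 0.74, to 104 FPKM, as the 1 riser among the 8 genes of the Brdt list, in which 5 fell, with Smarca4 at −1.90 and Brd7 at −1.62. Of the 10 ubiquitylation and damage genes set beside Rnf8, 4 rose and 5 fell: H2afx, the histone variant whose phosphorylation recruits the damage response, fell by 3.41 (from 67.9 to 5.34 FPKM) and Piwil1, a PIWI protein of the piRNA pathway, by 4.39 (from 167 to 6.95 FPKM), while Huwe1, a ligase, rose by 2.07 and G2e3 by 1.41. Of the 7 tested CHD paralogues, 1 rose and 6 fell, with Chd7 at 0.77 (from 0.208 to 1.06 FPKM) and Chd1 at −1.76, whereas Chd5 rose. All these are limma log2 changes with adjusted p under 0.05 in WT.

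In RS Setd2KO 15 of the 70 genes rose and 9 fell, with a median of 0.14 against 0.015 for all genes and 42.7% of all genes called, a background that the list did not exceed. Nutm1 fell by 0.84 (from 28.8 to 15.8 FPKM, limma adjusted p = 0.00230) and Epc2 by 0.55 (from 17.5 to 11.7 FPKM, adjusted p = 0.00906). Chd3, a paralogue of Chd5, fell by 0.73, and Rnf168, the ligase that acts after Rnf8, by 0.64 (from 14.2 to 8.76 FPKM). Hdac2, a corepressor partner of Cdyl, rose by 1.25 (from 6.52 to 16.8 FPKM), H2afx by 1.05, Morf4l2 by 0.98, Kat7 by 0.96 and Chd1 by 0.96. The Epc2 call was lost without RS WT replicate 1 (adjusted p = 0.0737) or RS Setd2KO replicate 1 (0.0826), and that of Rnf168 without the same libraries (0.0741 and 0.0756). Of the 70 genes, 16 were called without RS WT replicate 1 and 14 without RS Setd2KO replicate 1.

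In PD Setd2KO 23 of the 70 rose and 4 fell, with a median of 0.26 against 0.19 for all genes, of which 36.1% were called (29.8% higher, 6.30% lower), so the list's counts are near that background. The 16 NuA4/TIP60 partners had 5 risers and no faller, also near it, and the 9 tested Cdyl partners 5 and 1. H2afx rose by 1.09 (from 67.9 to 141 FPKM, limma adjusted p = 0.00333), Top2b, a topoisomerase that relaxes DNA, by 0.89 and Hdac2 by 0.82, and Chd3 fell by 0.72 and Msl1 by 0.68. Kat2b rose by 1.06 (from 0.324 to 1.80 FPKM) and Morf4l2 by 0.90 (from 0.547 to 1.90 FPKM), both at low levels. With the spermatid share subtracted neither passed (0.32, limma adjusted p = 0.135, and 0.13, adjusted p = 0.528). The count was 14 higher and 6 lower with upper-quartile scaling, 10 and 6 with quantile normalization, and 10 and 4 with the spermatid share subtracted. It was 13 in all without PD Setd2KO replicate 1 and 14 without PD Setd2KO replicate 2.

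Likeness of pattern was measured as the Euclidean distance between profiles of log2(FPKM + 1) over the 8 libraries, each centred on its mean. The gene nearest to Chd5 among all named genes tested was Cdyl, at 0.244, and the next was Proca1 at 0.267. The genes nearest to Cdyl were Saxo1 at 0.188 and Chn2 at 0.189. From Chd5 to the other 5 members the distance ran from 5.29 (Phf7) to 8.06 (Rnf8). Kat5 and Epc1, the subunits of 1 complex, stood 0.625 apart, and Brdt and Phf7 0.556 apart. The genes nearest to the others were Abt1 for Brdt (0.0811), Wdfy2 for Rnf8 (0.139), Copg1 for Epc1 (0.148), Ubb for Phf7 (0.168) and Coq9 for Kat5 (0.133).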

How the data were processed

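Gene expression was measured by RNA-seq in 8 libraries, 2 for each of 4 groups, and H3K36me3 by ChIP-seq with 1 deposited peak list per group. The authors deposited the expression values as FPKM, and per the submitters' processing notes they used CASAVA, TopHat2, Cufflinks and Cuffdiff on build mm9. Each peak has a score given by the authors, and per the submitters' processing notes CASAVA, Bowtie and bedtools were used. The peak names are those MACS writes, and its version is not given in the sources used here. Per the labels' protocols, spike-in chromatin went into each ChIP. Whether the peak lists were scaled by it, and whether the PD input libraries (not analysed here) were used, is not given in the sources used here.

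From the files, log2(FPKM + 1) was fitted with limma 3.58.1 in R 4.3.3 with an intensity trend and 1 mean per group, for the 11452 genes whose mean reached 1 FPKM in any group, and the moderated test had 4 residual and 6.92 prior degrees of freedom. All 7 members passed this filter. Benjamini-Hochberg adjustment ran over all tested genes, and adjusted p under 0.05 was called. The fit was tested on simulated data first. Depth was found from FPKM steps of single-exon genes, where 99.5% to 100% of the values used came out as whole reads within 0.01. A gene carried a peak when at least 1 base overlapped, with gene intervals as the expression tables give them.

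Alternatives were a pseudocount of 0.1, no filter, a filter at 5 FPKM, upper-quartile scaling, quantile normalization, a replicate block, leaving out each library, the subtraction of a spermatid share, a peak score of at least 100 and cover of at least 10%. The crossed block, the first 5 kb of the gene and the subtraction of a spermatocyte share were chosen after seeing the data. Partner genes were named as those with the largest change per direction in a list among those called, and the members and lists were chosen with earlier results of these data known. Promoter sequences are RefSeq's (GRCm38.p6), and no coordinates were converted between builds.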

Additional observations from a re-analysis of the deposited data

Results flagged for a closer look

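For 3 of the 7 members the effect of Setd2KO differed between the cell types by the test of the difference itself, in limma. Of all genes, 35.1% were called in the same test, so that count is near the background. Chd5 differed by −1.53 (RS minus PD) and Cdyl by −1.57, with Setd2KO above WT in both PD libraries and below it in both RS libraries. Kat5 differed by 0.63, with both PD Setd2KO libraries below both PD WT libraries and both RS Setd2KO libraries above both RS WT libraries. Kat5 passed in neither cell type alone (limma adjusted p = 0.136 in PD and 0.110 in RS). The Kat5 call depended on single libraries, as given above. That of Chd5 was lost with the spermatid share subtracted and that of Cdyl was kept. The subtraction sets the PD levels of both near 0 by construction, so it is no separate check of either.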

How the results depend on the processing

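The correlations gave no sign that equal replicate numbers mark pairs. Deviations of same-numbered libraries correlated at −0.31 to 0.07 over the 6 pairs of groups (−0.09 in PD, −0.15 in RS, −0.17 between the WT and −0.31 between the Setd2KO cell types). Negative values could also come from pairs with crossed numbers, so whether libraries were paired cannot be read from them. With a replicate block 3842 genes were called in PD, 4613 in RS, 9400 and 9393 for the step in WT and Setd2KO, and 3770 for the difference of effects, and of the members 2, 2, 5, 5 and 3, with Brdt in PD and in the Setd2KO step (adjusted p = 0.0599 and 0.0680) and Epc1 in RS (0.0606) past the threshold no longer. With the numbers crossed in RS, the genes were 4150, 4817, 9477, 9456 and 4018 and the members 2, 3, 5, 5 and 3. A filter at 5 FPKM left 2566, 2998, 6262, 6189 and 2452 genes called, since fewer genes are tested. With the spermatid share subtracted, 2625 genes (61.8% higher) and 0 members were called in PD, a loss that for Chd5 and Cdyl follows by construction. Of the calls in PD, 82.5% were higher, against 66.3% with upper-quartile scaling and 45.7% with quantile normalization, and of the differences 22.1%, against 41.5% and 52.9%. Members called in RS were 6 with upper-quartile scaling and 5 with quantile normalization. The peak in Cdyl was gone, leaving 0 members, at a score of at least 100, at 10% cover and in the first 5 kb. Leaving out 1 library gave 2582 to 4586 genes in PD, 2957 to 5724 in RS, 8842 to 9665 and 8708 to 9914 for the steps and 2831 to 4342 for the difference, with 2 to 4, 0 to 6, 5 to 6, 5 to 6 and 2 to 3 members. In PD the count was 2582 without PD Setd2KO replicate 1 and 2589 without PD Setd2KO replicate 2, and in RS 2957 without RS WT replicate 1 and 3092 without RS Setd2KO replicate 1.

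Among the members, changes of sign came in values that were not called, apart from Chd5 in PD (−0.050 with the spermatid share subtracted). Among the partner genes, Nutm1 in PD, called at 0.52, stood at −0.0080 with that share subtracted. Rnf8 in PD stood at −0.018 with quantile normalization. Epc1 in PD stood at −0.090 with upper-quartile scaling, −0.12 with quantile normalization, −0.031 with the spermatid share subtracted, and −0.055 to 0.13 without 1 library. Phf7 in the WT step stood at −0.081 with upper-quartile scaling and −0.044 with the spermatocyte share subtracted, and −0.18 to 0.20 without 1 library (lowest without PD WT replicate 1 and RS WT replicate 2). The difference for Rnf8 stood at 0.0098 with a pseudocount of 0.1, 0.13 with upper-quartile scaling and 0.17 with quantile normalization, and −0.099 to 0.040 without 1 library (above 0 without PD WT replicate 2 or RS Setd2KO replicate 2). That for Phf7 ran from −0.089 to 0.29 (below 0 without PD WT replicate 2 or RS WT replicate 1). The cause was not tested.

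With 2 libraries per group and 1 peak list per group, small changes of the members could not be detected, and peak cover has no replicate error.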

Other observations

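A list of 8 chromatin and DNA enzymes (the topoisomerases Top2a and Top2b, the poly(ADP-ribose) enzymes Parp1, Parp2 and Parg, and the histone enzymes Dot1l, Sirt1 and Kdm3a) had 1 gene that rose and 7 that fell from PD to RS in WT. Parg, which removes poly(ADP-ribose), fell by 2.43 (from 14.4 to 1.86 FPKM) and Parp1, which makes it, by 2.18 (from 41.1 to 8.22 FPKM). Dot1l, the H3K79 methyltransferase, rose by 1.15 (from 8.56 to 20.1 FPKM). Of the 9 tested partners of Cdyl, 2 rose and 4 fell. Cdyl2, its paralogue, rose by 1.02 (from 0.829 to 2.72 FPKM), while the Polycomb genes Ezh1 and Suz12 fell by 1.64 and 1.26. The other riser, Ehmt2, an H3K9 methyltransferase, rose by 0.60 (adjusted p = 0.00518), a call lost without RS WT replicate 1 (adjusted p = 0.0626). All are limma log2 changes with adjusted p under 0.05, in a comparison where 82.7% of all genes were called.

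In RS Setd2KO, where 42.7% of all genes were called, 3 of the 9 Cdyl partners rose and 1 fell, and 1 of the 8 chromatin and DNA enzyme genes rose and 1 fell. Hdac2 rose by 1.25, Suz12 by 0.66 and Top2b by 0.58 (from 0.361 to 1.05 FPKM). Cdyl2 and Parp2 fell, by 0.32 (from 2.72 to 1.99 FPKM) and 0.37 (from 1.95 to 1.29 FPKM). The limma call for Cdyl2 was lost without RS WT replicate 1 (adjusted p = 0.175), RS WT replicate 2 (0.0574) or RS Setd2KO replicate 1 (0.172), and that for Parp2 without the same libraries (0.129, 0.0646 and 0.140).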
